A study of Mus musculus with 13 samples.

Results

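Interscapular brown adipose tissue (iBAT) was profiled by bulk RNA sequencing, and the 5 genes described here are the TAM receptors and their ligands. They were the receptors Axl, Mertk and Tyro3 and the ligands Gas6 and Pros1, chosen by gene name and matched to their Ensembl identifiers, 5 of the 42416 identifiers counted. All mice carried the Axl gene flanked by loxP sites on both alleles, had free access to a high-fat diet (HFD) and were housed at room temperature. The 8 libraries labelled iFAXLKO came from mice that also carried a Cre recombinase, and the 5 libraries labelled WT came from Cre-negative mice, so that WT animals were floxed too. Tamoxifen was given at intervals of 3 weeks to induce the deletion, and the methods of the study do not say whether Cre-negative mice received it. The study's methods give the Cre as a tamoxifen-activated CreERT2 driven by the adipocyte gene Adipoq and induced in young adult mice. Such a Cre acts in adipocytes, while the libraries held RNA of whole tissue, and the deposited counts covered the whole Axl gene without separating reads of the floxed exons.

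TAM receptors are receptor tyrosine kinases that take their name from Tyro3, Axl and Mertk. Gas6 and Protein S, the product of Pros1, carry a vitamin K-dependent Gla domain that binds phosphatidylserine on dying cells and so bridge those cells to a TAM receptor. Gas6 can engage each of the receptors, whereas Protein S acts on Tyro3 and Mertk. The family is best known for the clearance of apoptotic cells by macrophages and for restraining innate immune responses, and Axl is also found on fibroblasts and vascular cells.

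The libraries held 22.44 to 32.6 M (mega) counts, so that 3 counts corresponded to 0.092 to 0.134 counts per M counts of the library (CPM). All 10 brown adipocyte markers on the list passed the filter, with a summed level of 7455 to 14010 CPM, so the labelled tissue expressed its defining genes. The WT library of replicate 2 stood apart from the others on the second principal component. Skeletal muscle markers summed to between 2.871 and 5312 CPM across the libraries. In whole tissue, fewer cells of a type and less RNA per cell cannot be told apart. Nothing in the labels says more about how the samples of a group were obtained, and the study's figure legend describes female littermates. Each p-value weighs a difference against the spread between these libraries only.

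The promoters of the 4 members above the expression filter are shown because they let their starts be compared for shared short motifs. Each sequence is the 250 bases before the RefSeq start on GRCm38.p6, read 5′ to 3′ on the strand of the gene. Capitals mark the GC box GGGCGG or its reverse complement CCGCCC and, in Axl, the TEAD motif GGAATG.
Axl, chr7:25788734-25788983, minus strand: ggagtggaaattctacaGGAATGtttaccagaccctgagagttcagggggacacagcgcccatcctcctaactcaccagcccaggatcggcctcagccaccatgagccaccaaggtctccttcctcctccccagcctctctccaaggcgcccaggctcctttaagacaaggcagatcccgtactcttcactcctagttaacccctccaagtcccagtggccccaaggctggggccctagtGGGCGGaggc
Mertk, chr2:128698665-128698914, plus strand: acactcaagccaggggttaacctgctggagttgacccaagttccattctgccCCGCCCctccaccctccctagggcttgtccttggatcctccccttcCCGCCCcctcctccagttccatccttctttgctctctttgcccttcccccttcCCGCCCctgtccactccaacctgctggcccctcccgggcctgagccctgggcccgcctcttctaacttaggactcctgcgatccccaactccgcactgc
Gas6, chr8:13494536-13494785, minus strand: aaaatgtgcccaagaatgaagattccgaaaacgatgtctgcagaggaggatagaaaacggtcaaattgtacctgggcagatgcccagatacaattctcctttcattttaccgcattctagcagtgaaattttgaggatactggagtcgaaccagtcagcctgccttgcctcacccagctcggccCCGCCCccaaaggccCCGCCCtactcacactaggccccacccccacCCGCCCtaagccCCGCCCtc
Pros1, chr16:62854057-62854306, plus strand: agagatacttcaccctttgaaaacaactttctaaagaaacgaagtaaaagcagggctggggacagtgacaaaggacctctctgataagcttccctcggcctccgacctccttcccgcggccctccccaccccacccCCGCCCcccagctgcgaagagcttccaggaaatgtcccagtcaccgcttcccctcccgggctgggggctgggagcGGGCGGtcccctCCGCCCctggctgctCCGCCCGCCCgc

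The GC box, the letters bound by SP1-type factors, was found on either strand in every one of these windows, and 32.7% of the 32817 RefSeq promoters of the same length held it. It occurred once, 10 bases before the start, in Axl, at 3 places in Mertk, at 4 in Gas6 and at 5 in Pros1, where the last pair overlapped. The Tyro3 window, which was the richest in GC at 73.2%, held 3. Its start lay inside the annotated gene span, and its letters are not shown. The TEAD motif GGAATG was present in the Axl window only, and 12.6% of all promoters held it. The AP-1 motif TGANTCA (6.75% of promoters), the LXR repeat unit AGGTCA (14.0%) and the TATA box TATAAA (12.4%) were each searched on both strands and had no match in any member. Axl had 5 CpG sites in its window and Pros1 had 15, against a median of 6 over all promoters. These matches describe letters, not sites in use.

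Axl, the receptor targeted in the iFAXLKO mice, lies at chr7:25757273-25788705 on the minus strand (GRCm38, GENCODE M21). In the WT libraries of replicates 1 to 5 Axl stood at 28.5, 27.0, 26.3, 33.9 and 23.5 CPM. In the libraries labelled iFAXLKO it ranged from 26.6 to 44.0 CPM with a median of 31.7. The groups overlapped, no library labelled iFAXLKO fell under the WT minimum, and 3 of 8 lay above the WT maximum. Mean Axl was 33.2 ± 6.17 CPM (SD, n = 8) in the libraries labelled iFAXLKO and 27.8 ± 3.83 CPM (SD, n = 5) in WT, which is 119% of the WT level. Its log2 fold change was 0.25 (SE 0.13, approximate 95% interval -0.03 to 0.53, edgeR quasi-likelihood adjusted p = 0.699), and the exact permutation test on mean log2 CPM gave p = 0.102 (2-sided, smallest possible 0.000777). Total Axl transcript was therefore not lower in the libraries labelled iFAXLKO, and the gene goes against the direction that this label gives. Loss restricted to adipocytes or to the floxed exons was not measured by these counts.

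**Figure D1:**
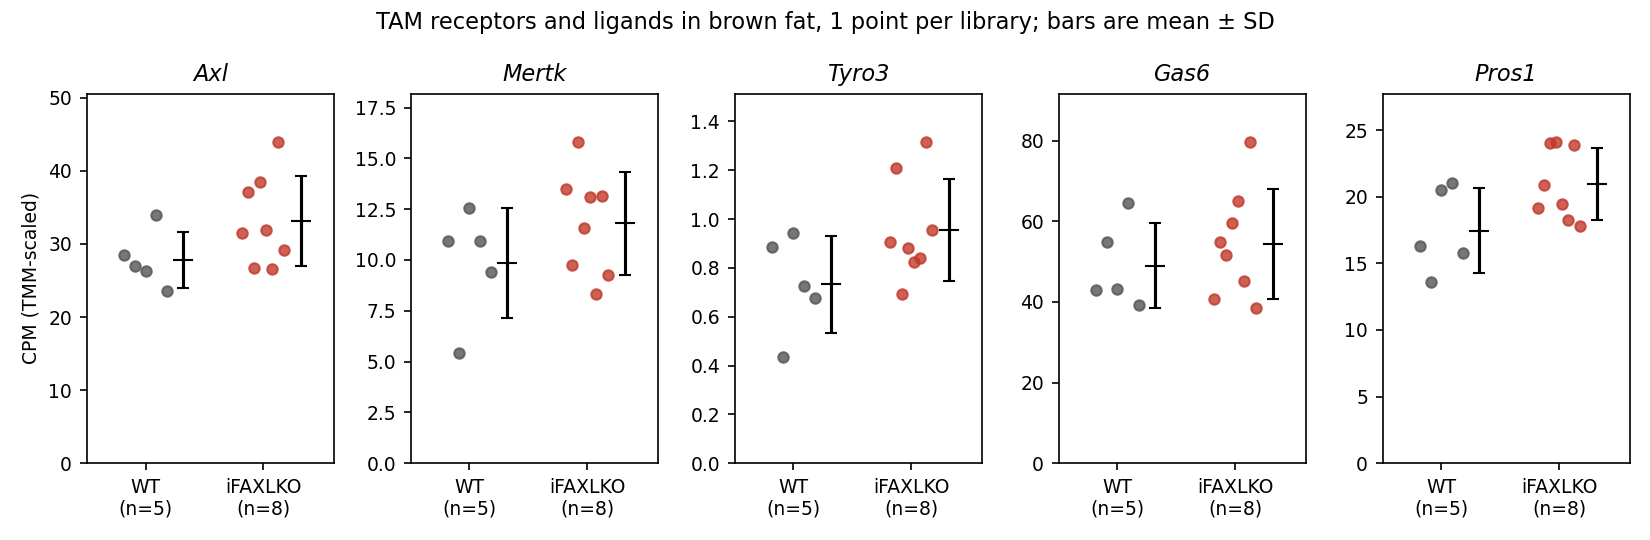
Level of each TAM gene in CPM (vertical axis, starting at 0, a separate scale for each gene) in the WT and iFAXLKO libraries, 1 point per library, with the mean and SD beside the points. All 5 means were higher in the libraries labelled iFAXLKO, and the points of the groups overlapped for every gene.

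Mertk, the TAM receptor characteristic of tissue macrophages, lies at chr2:128698956-128802894 on the plus strand. Its WT levels were 10.95, 5.44, 12.55, 10.94 and 9.42 CPM, and its iFAXLKO levels ran from 8.34 to 15.8 CPM with a median of 12.3. The WT library of replicate 2 was the lowest of all 13 for Mertk, and the rest of the WT values lay within the iFAXLKO range. The log2 fold change was 0.26 (SE 0.19, approximate 95% interval -0.15 to 0.67, edgeR adjusted p = 0.821, exact permutation p = 0.225), and 5 of 8 exceeded the mean of WT. Without the WT library of replicate 2 it was 0.11.

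Tyro3, best known from the nervous system, was the scarcest member, at chr2:119797733-119818104 on the plus strand. Its WT levels were 0.885, 0.435, 0.943, 0.727 and 0.676 CPM, and its iFAXLKO levels ran from 0.691 to 1.32 CPM with a median of 0.895. These values rest on 10 to 35 counts per library, and only 2 libraries exceeded 1 CPM, so Tyro3 was left out of the fit across genes. Its mean log2 CPM was higher by 0.36 in the libraries labelled iFAXLKO, in 7 of 8 against the WT mean, with an exact permutation p of 0.0738. That p was 0.0354 without the iFAXLKO library of replicate 3 and 0.0384 without the WT library of replicate 3, which changes the call at 0.05. Without the WT library of replicate 2 the difference was 0.21 with an exact permutation p of 0.226, and over the other 10 fits that left out 1 library p was 0.0586 to 0.133.

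Gas6, the ligand shared by the whole receptor family, lies at chr8:13465374-13494490 on the minus strand. The WT libraries held 43.0, 55.0, 43.3, 64.6 and 39.3 CPM, and the libraries labelled iFAXLKO held 38.6 to 79.8 CPM with a median of 53.3. Both the lowest and the highest value belonged to libraries labelled iFAXLKO. The log2 fold change was 0.15 (SE 0.17, approximate 95% interval -0.23 to 0.53, edgeR adjusted p = 0.906, exact permutation p = 0.493), and 0.05 without the iFAXLKO library of replicate 7, which held the maximum. The exons of Gas6 overlap those of Tmem255b on the other strand, a gene with 649 counts over all 13 libraries, and whether counting used strand is not given in the sources used here.

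Pros1, the gene for Protein S, which is also an anticoagulant cofactor in plasma, lies at chr16:62854307-62929346 on the plus strand. The WT libraries held 16.3, 13.6, 20.5, 21.04 and 15.8 CPM. The libraries labelled iFAXLKO held 17.8 to 24.1 CPM with a median of 20.2, and all 8 lay above the WT mean, as they did for 3.2% of all genes tested. The WT values of replicates 3 and 4 lay inside the iFAXLKO range and the other 3 lay under it. The log2 fold change was 0.26 (SE 0.12, approximate 95% interval 0.00 to 0.52), with an exact permutation p of 0.0482, while the edgeR p was 0.0400 before and 0.642 after adjustment over 13360 genes.

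Of the 4 members fitted, which leaves out Tyro3, 0 passed the edgeR test after adjustment, against a background of 0.127% of the 13360 genes tested (0.0973% higher and 0.0299% lower). Pros1 was the 1 member with an unadjusted p under 0.05, against 7.38% of all genes (3.84% higher and 3.54% lower). For 0 members did the groups not overlap, against 0.434% of all genes. The log2 fold changes of the 4 tested members were all above 0, as were 46.4% of those of all genes tested. In the lower range of library numbers (4 iFAXLKO and 2 WT libraries) the differences in mean log2 CPM were 0.26 for Axl, 0.68 for Mertk, 0.49 for Tyro3, 0.07 for Gas6 and 0.56 for Pros1. In the upper range (4 and 3 libraries) they were 0.23, -0.02, 0.30, 0.20 and 0.06 in the same order. The lower range rests on 2 WT libraries, and without that of replicate 2 its differences were 0.22 for Axl, 0.18 for Mertk, 0.03 for Tyro3, 0.25 for Gas6 and 0.43 for Pros1. The values for Mertk, Tyro3 and Gas6 thus turned on that library. The difference between the ranges was not tested.

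Per length of exon, Gas6 was the most abundant member, at 15.1 to 31.3 RPKM (CPM divided by the exon length in kilobases). Axl followed at 4.67 to 8.74 RPKM, Pros1 at 3.33 to 5.90, Mertk at 1.26 to 3.65 and Tyro3 at 0.070 to 0.213. This order held in 12 of 13 libraries, and in the other one Pros1 stood above Axl. The ranges of the neighbours Axl and Pros1 overlapped, as did those of Pros1 and Mertk, whereas the ranges of Gas6 and Tyro3 overlapped with no other member. Gas6 exceeded Axl 3.33 ± 0.497-fold (SD, n = 13) and Axl exceeded Mertk 2.55 ± 0.723-fold. Axl made up 70.1% ± 6.43 of the summed receptor RPKM in WT (SD, n = 5) and 69.5% ± 5.45 in the libraries labelled iFAXLKO (SD, n = 8), and Gas6 made up 81.6% and 80.2% of the summed ligand RPKM. The makeup of the family thus differed between groups by less than the spread between libraries.

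**Figure D2:**
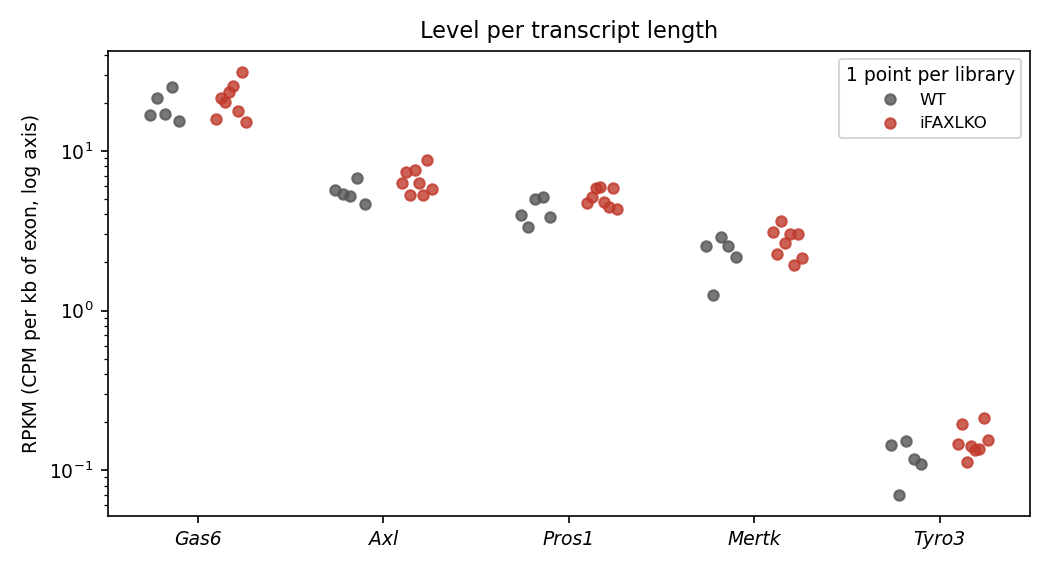
RPKM (CPM per kilobase of exon, vertical log axis) for each TAM gene in every library, coloured by group, 1 point per library. Gas6 lies at the top at 15.1 to 31.3 and Tyro3 at the bottom at 0.070 to 0.213.

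The level of each member was then related to lists of cell type markers across the libraries, to describe which cell type levels the member varied with. A score was the mean log2 CPM of the tested genes of a list. Group means were subtracted from scores and members, and the permutation p (2-sided, labels permuted within groups) was adjusted over 45 relations, 7 of which passed. Axl varied most closely with the fibroblast score, with r = 0.92 over 13 libraries (permutation p = 0.00013, adjusted p = 0.00585) and rho = 0.90 (permutation p = 0.00023, adjusted p = 0.0104). Libraries rich in collagen and stromal transcripts were the ones rich in Axl, and all 12 fibroblast markers had a positive r with it, from 0.50 to 0.86. The r was 0.86 and 0.97 in the lower and upper range of library numbers, 0.92 without the 2 libraries farthest from the median score, and 0.91 to 0.94 when each library was left out.

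Axl also varied with the macrophage score, with r = 0.79 (permutation p = 0.00421, adjusted p = 0.0271) and rho = 0.78 (permutation p = 0.0052, adjusted p = 0.0334). This relation was weaker in the lower range of library numbers, at 0.55 against 0.89, and without the 2 farthest libraries r was 0.63 and no longer passed. Its r with the brown adipocyte score was -0.55 (permutation p = 0.0804, adjusted p = 0.241) and with the general adipocyte score -0.01 (permutation p = 0.966, adjusted p = 0.983). Of the cell types tested, the relations of Axl that passed were with the fibroblast and macrophage lists, and no positive relation with adipocyte genes was detected. The adipocyte and brown adipocyte scores varied little within groups (SD 0.084 and 0.119, against 0.273 for fibroblasts and 0.223 for macrophages). Whether this narrow spread hid a relation of Axl with adipocyte genes was not tested. The Schwann cell score also varied little (SD 0.104), and Pros1 passed with it. Which cells the Axl transcript came from was not tested.

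Gas6 also passed with the macrophage and fibroblast lists. Its r was 0.84 with the macrophage score (permutation p = 0.00104, adjusted p = 0.0192, rho = 0.80 with permutation p = 0.0031) and 0.80 with the fibroblast score (permutation p = 0.00295, adjusted p = 0.0266, rho = 0.79 with permutation p = 0.00402). Without the 2 farthest libraries these were 0.79 and 0.81, and neither passed. Within the lower and upper ranges of library numbers r was 0.80 and 0.90 with macrophages and 0.64 and 0.94 with fibroblasts. C1qc, a complement subunit made by macrophages and a member of that list, was the second gene most like Gas6 in its pattern (r = 0.91).

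By Pearson's r Pros1 passed with 3 lists. Its r was 0.83 with pericyte and smooth muscle genes (permutation p = 0.00253, adjusted p = 0.0266, rho = 0.76 with permutation p = 0.0115), 0.76 with Schwann cell genes (permutation p = 0.00128, adjusted p = 0.0192, rho = 0.77 with permutation p = 0.00351) and 0.74 with macrophage genes (permutation p = 0.00384, adjusted p = 0.0271, rho = 0.79 with permutation p = 0.00097). By Spearman's rho the pericyte and smooth muscle list no longer passed (permutation p adjusted to 0.0646). The endothelial list, with r = 0.70 (permutation p = 0.0091, adjusted p = 0.0512), passed by rho instead (rho = 0.76, permutation p = 0.00225, adjusted p = 0.0302). Without the 2 farthest libraries these were 0.81, 0.80 and 0.70, and none passed. In the lower and upper ranges r was 0.82 and 0.70 for pericytes and smooth muscle, 0.84 and 0.65 for Schwann cells, and 0.62 and 0.91 for macrophages. Single markers did not all follow their list. The r with Pros1 was positive for 7 of 8 pericyte and smooth muscle genes, 6 of 8 Schwann cell genes and 10 of 11 macrophage genes. S100b and Mbp, the most abundant Schwann cell markers, went the other way (r = -0.55 and -0.37).

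Mertk passed with no list. Its highest r was 0.69 with endothelial genes (permutation p = 0.0107, adjusted p = 0.0534, rho = 0.66 with permutation p = 0.0193), its lowest was -0.69 with adipocyte genes (permutation p = 0.019, adjusted p = 0.0856), and its r with macrophage genes was 0.39 (permutation p = 0.158, adjusted p = 0.374). In the lower and upper ranges the macrophage r was -0.25 and 0.92, so the pooled value joins a negative and a positive one. Tyro3 passed with no list either, and at 10 to 35 counts its weak correlations are not read. The difference between correlations of separate members was not tested.

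**Figure D3:**
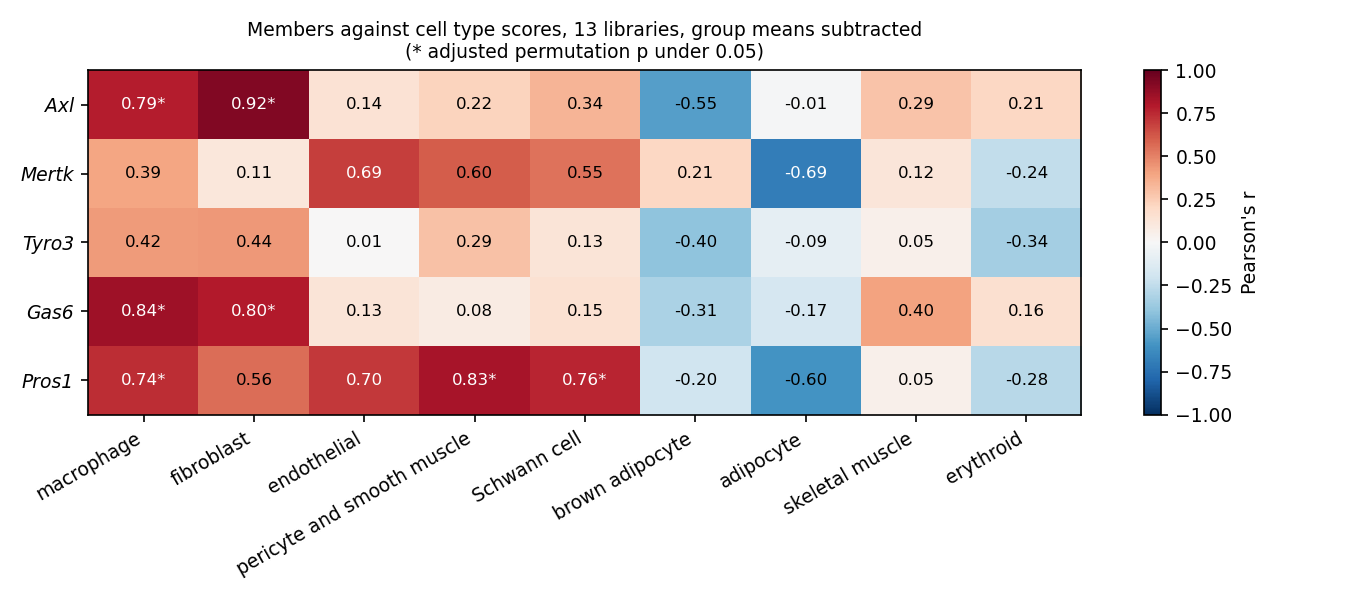
Pearson's r of each TAM gene (rows) with each of 9 cell type scores (columns) over 13 libraries after subtracting group means, coloured from -1 to 1, with a star where the adjusted permutation p was under 0.05. Axl and Gas6 have stars with macrophages and fibroblasts, and Pros1 with macrophages, pericytes and smooth muscle, and Schwann cells.

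**Figure D4:**
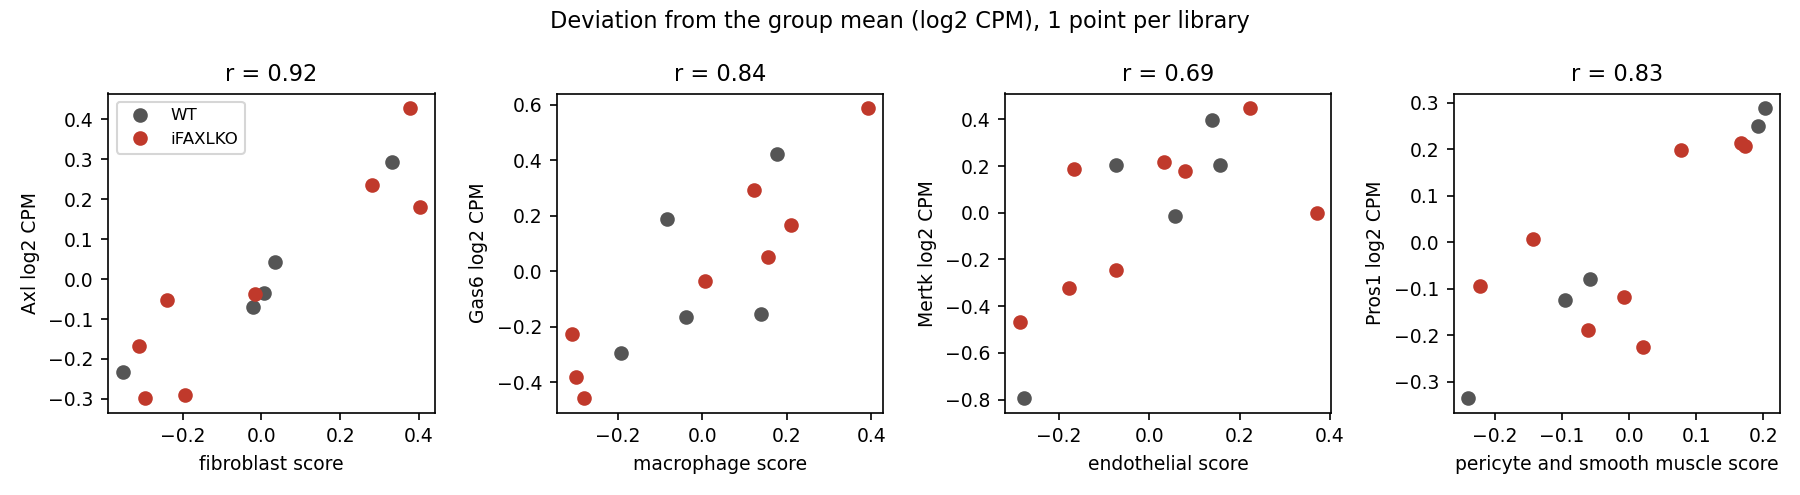
Deviation of a TAM gene from its group mean (vertical axis, log2 CPM) against the deviation of a cell type score (horizontal axis, log2 CPM), 1 point per library, coloured by group. The panels show Axl with fibroblasts (r = 0.92), Gas6 with macrophages (r = 0.84), Mertk with endothelium (r = 0.69) and Pros1 with pericytes and smooth muscle (r = 0.83).

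Among the members themselves, 2 of 10 pairs passed. Axl and its ligand Gas6 had r = 0.75 (permutation p = 0.0071, adjusted p = 0.0386, rho = 0.71 with permutation p = 0.0122), and Mertk and its ligand Pros1 had r = 0.73 (permutation p = 0.00771, adjusted p = 0.0386, rho = 0.68 with permutation p = 0.0187). Without the 2 farthest libraries these fell to 0.49 and 0.67 and did not pass. In the lower and upper ranges they were 0.34 and 0.90 for Axl with Gas6, and 0.55 and 0.74 for Mertk with Pros1. Axl and Mertk had r = 0.15 (permutation p = 0.609, adjusted p = 0.761).

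The genes whose pattern was most like Axl, by r of log2 CPM over 13 libraries with group means subtracted, were Anpep (0.98), Cd34 (0.95), Gas7 (0.93), F13a1 (0.90) and Lpar1 (0.90). Anpep and Cd34 encode surface proteins found on stromal progenitors among other cells. Over all genes tested, 52 exceeded 0.8 with Axl, and Gas6 ranked 94th. Those most like Mertk were Enah (0.98), Map4k2 (0.96), Tmtc1 (0.96), Ip6k1 (0.95) and Tmcc3 (0.94). With Mertk, 330 genes exceeded 0.8, and Pros1 ranked 664th. Those most like Gas6 were Pla1a (0.93), C1qc (0.91), Il4ra (0.91), Ces2g (0.91) and Fcer1g (0.90), and Axl ranked 79th. Those most like Pros1 were Prdm9 (0.94), Sncaip (0.94), Sp100 (0.94), Crybg1 (0.93) and Flna (0.93), and Mertk ranked 391st. Those most like Tyro3 were Cybb, the phagocyte NADPH oxidase subunit (0.88), Ikzf2, Gmip, Cpeb2 and Sec24d, with 18 genes above 0.8.

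Of the 9 cell type scores, 3 differed between the groups at an unadjusted exact permutation p under 0.05. The lists were chosen with earlier results of these data known, and the fibroblast list holds many matrix genes. From the same mice the study reports mostly extracellular matrix pathways in a cluster of genes higher in iFAXLKO, so the fibroblast result is not independent of it. The fibroblast score was higher by 0.62 in the libraries labelled iFAXLKO (exact permutation p = 0.00622, 8 of 8 above the WT mean), and its 12 markers summed to 580 to 1266 CPM against 428 to 762 CPM in WT. The macrophage score was higher by 0.41 (exact permutation p = 0.0155, 8 of 8), with its 12 markers summing to 112 to 210 CPM against 94.2 to 132 CPM. All 12 fibroblast genes and all 11 tested macrophage genes had a log2 fold change above 0, though 0 passed the adjusted test, and no marker of either list was at 0 in every library. The Schwann cell score was higher by 0.18 (exact permutation p = 0.0148, 8 of 8), while its summed level was 127 to 286.7 CPM against 226 to 351 CPM. The brown adipocyte score was lower by a difference of -0.13 (exact permutation p = 0.0956, 1 of 8 above the WT mean). The erythroid score was higher by 0.43 (exact permutation p = 0.0676, 7 of 8). The endothelial score differed by 0.11, the pericyte and smooth muscle score by 0.14, the adipocyte score by -0.06 and the skeletal muscle score by -0.91 (exact permutation p = 0.378, 0.166, 0.295 and 0.634).

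With the fibroblast score as a covariate the log2 difference of Axl was -0.23 and that of Gas6 was -0.44 (n = 13, edgeR p = 0.0389 and 0.0221 before adjustment, 1.0 after). With the macrophage score they were -0.08 and -0.37 (n = 13, edgeR p = 0.485 and 0.0186 before adjustment, 1.0 after). Mertk stood at 0.19 and 0.02 with these covariates, and Pros1 at 0.00 and -0.01. The skeletal muscle score as a covariate left all 4 above 0, from 0.19 to 0.27. The sign of the Axl and Gas6 differences therefore depended on whether the fibroblast or macrophage score was in the model. The fibroblast score itself differed between the groups, at 4.73 to 5.45 in the libraries labelled iFAXLKO and 4.08 to 4.76 in WT. This model can therefore hardly separate that score from the group. The part of these cell types in the group differences was not tested.

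**Figure D5:**
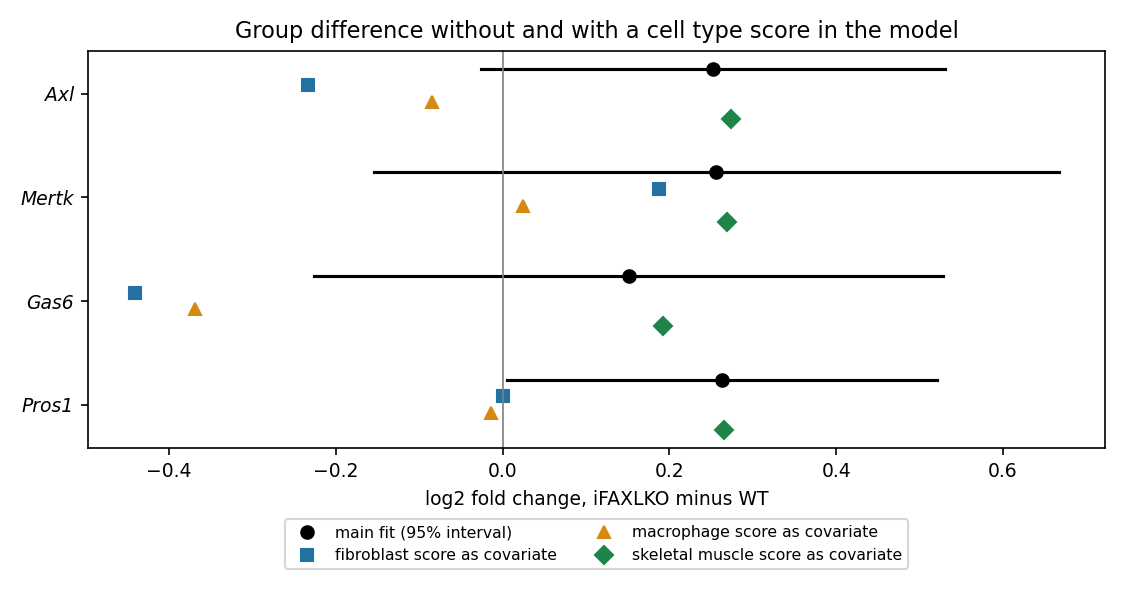
Log2 fold change between the libraries labelled iFAXLKO and WT (horizontal axis, above 0 is higher in iFAXLKO) for the 4 tested TAM genes, without a covariate (circle, with its approximate 95% interval) and with a cell type score as covariate. Axl moves from 0.25 to -0.23 and Gas6 from 0.15 to -0.44 with the fibroblast score.

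Of 53 other genes of the pathway, 45 were tested and 0 passed the adjusted test in either direction. An unadjusted p under 0.05 was found for 4, or 8.89% against the background of 7.38%, and all 4 had a higher mean in the libraries labelled iFAXLKO. Their median log2 fold change was 0.03 over the 45 genes, with 25 above 0. Stab1, a scavenger receptor that binds phosphatidylserine, stood at a mean of 58.9 ± 7.90 CPM (SD, n = 8) in the libraries labelled iFAXLKO and 42.9 ± 8.80 CPM (SD, n = 5) in WT, with a log2 fold change of 0.46 (SE 0.13, edgeR adjusted p = 0.381). Itgb3, an integrin subunit that recognises bridged apoptotic cells, had 0.67 (SE 0.25, edgeR adjusted p = 0.537). The adaptors Vav3 and Elmo1, which link engulfment receptors to Rac1, had 0.27 (SE 0.12, edgeR adjusted p = 0.636) and 0.31 (SE 0.14, edgeR adjusted p = 0.658). Adding the fibroblast score to the model gave 0.19 for Stab1, 0.01 for Itgb3, 0.02 for Vav3 and 0.30 for Elmo1. Adding the macrophage score instead gave 0.18, 0.13, 0.06 and 0.22 in the same order. Whether stromal or macrophage content accounts for these 4 differences was not tested.

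The roles around the receptors gave no call. The enzyme Ggcx, which gamma-carboxylates the Gla domains of Gas6 and Protein S, had a log2 fold change of 0.06 (edgeR adjusted p = 0.942). The proteases Adam10 and Adam17, which shed TAM ectodomains, had 0.06 and -0.14 (edgeR adjusted p = 0.939 and 0.729). Cblb, a ubiquitin ligase that turns over TAM receptors, had 0.36 (edgeR adjusted p = 0.748), and Cbl of the same role had 0.12 (edgeR adjusted p = 0.920). Pik3r1, a regulatory subunit of PI3K, had 0.51 (edgeR adjusted p = 0.690). The other PI3K genes listed, Pik3r2, Pik3ca and Pik3cb, had 0.09, -0.14 and -0.14 (edgeR adjusted p = 0.856, 0.734 and 0.814). Among bridging molecules, Mfge8 was the most abundant per length of its role at 26.6 RPKM, and Lgals3, a reported Mertk ligand, had 3.23 RPKM and a log2 fold change of -0.13 (edgeR adjusted p = 0.969). Of the LXR receptors and targets, Nr1h3 had -0.04 and Abca1 0.14 (edgeR adjusted p = 0.965 and 0.909). Tub, Tulp1, Socs1, Timd4, Stab2, Adgrb1, Havcr1 and Cd300lf were under the expression filter.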

How the data were processed

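Gene counts were deposited per library, and the deposited values are raw counts of reads per Ensembl gene, which the authors did not normalise in these files. The submitters' processing notes name bcl2fastq 2.20, fastp 0.20.0, STAR 2.7.4a, DESeq2 and GRCm38.p6, and the labels give polyA RNA. The study's methods name other trimming and alignment tools and rRNA depletion. How reads were counted, and whether by strand, is not given in the sources used here. The 13 libraries (8 iFAXLKO, 5 WT) held 22.44 to 32.6 M counts, and no pair of libraries of the same group agreed within sampling noise. Pairs across groups were not compared. Of 42416 identifiers, 42347 matched GENCODE M21, which gave coordinates and exon lengths. Symbols came from a separate list of gene names, which held 42263 of the identifiers. Promoters came from RefSeq.

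The members, marker lists and pathway list were chosen with earlier results of these data known. Genes with CPM above 1 in at least 5 libraries (13360) were tested by edgeR 4.0.16 (robust quasi-likelihood, TMM, 2-sided, Benjamini-Hochberg over all genes, call at 0.05) in R 4.3.3. The SE is the log2 fold change divided by the square root of F, and the approximate interval uses 11 residual degrees of freedom. CPM were scaled by TMM, with a prior count of 2 on the log2 scale. Exact permutation tests enumerated all 1287 assignments of 8 and 5 libraries. Relations used 100000 permutations within groups, or 20000 where libraries were left out. Named genes were the members, pathway genes with an unadjusted p under 0.05, genes named by role and the 5 genes most like each member. On simulated data for this comparison with 13360 genes, the edgeR step recovered 69.6% of genes changed 1.5-fold and 90.0% of those changed 2-fold, with 7 false calls. Changes under 1.5-fold, such as those of the 4 members fitted (111% to 120% of the WT level), were not simulated. Alternatives were other normalisations, filters and tools (limma-voom 3.58.1 and DESeq2 1.42.0), covariates, library number ranges and leaving out each library. The floor of 3 counts covers counting error only.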

Additional observations from a re-analysis of the deposited data

Results flagged for a closer look

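The skeletal muscle score of the WT library of replicate 5, the mean log2 CPM of 10 muscle genes, was 0.812, far under the other WT libraries at 6.54 to 7.99. It was the 1 group of 32 tested in which a library lay this far from the rest (gap of 0.798 of the range, critical value 0.71), and chance flags about 1 in 20 groups. The iFAXLKO library of replicate 8 had a lower score still, at -1.77. It was not flagged, since each group was tested by itself and the iFAXLKO scores ran up to 8.64. The TAM genes of the WT library of replicate 5 were Axl 23.5 CPM, the lowest of the 13, and Gas6 39.3 CPM. With the muscle score as a covariate the Axl difference was 0.27.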

How the results depend on the processing

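Axl, Mertk, Gas6 and Pros1 gave 0 adjusted calls in the alternatives that gave an adjusted p, and Tyro3, fitted only under the lighter filters (no filter beyond 1 count and filterByExpr), gave edgeR adjusted p = 0.736 and 0.746. The directions of Axl, Mertk, Gas6 and Pros1 held except with the fibroblast score as covariate (Axl -0.23, Gas6 -0.44, Pros1 -2.83e-05), with the macrophage score (Axl -0.084, Gas6 -0.37, Pros1 -0.014) and, for Mertk, in the upper range of library numbers (-0.020). The cause was not tested. Leaving out each library gave 0.18 to 0.33 for Axl, 0.11 to 0.37 for Mertk, 0.05 to 0.27 for Gas6, 0.19 to 0.34 for Pros1 and 0.21 to 0.47 for Tyro3. Genes called numbered 17, but 67 with DESeq2, 7 with the replicate block, 8 with the fibroblast and 9 with the macrophage score, and 14 to 19 without each library in turn.

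Whether the replicate number pairs the samples could not be settled from these libraries. Correlations of deviations over the 5 pairs were 0.39, 0.42, 0.19, 0.18 and -0.61, and 3 of 5 WT libraries were closest to their own number. Under the replicate block Axl was 0.25, Mertk 0.40, Gas6 0.15 and Pros1 0.31 (edgeR adjusted p = 0.366, 0.303, 0.712 and 0.293).

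Of marker relations, 7 passed, against 12 without subtracting group means, 1 without the 2 farthest libraries and 1 to 9 when each library was left out: 1 without WT 4 or WT 5, 2 without WT 2 or iFAXLKO 6, and 4 without WT 1, iFAXLKO 7 or iFAXLKO 8. The Axl relation with fibroblasts passed in 13 of 13 such fits and the other 6 in 4 to 10. Of member pairs, 2 passed, against 0 by Spearman's rho, 0 with the muscle score removed, 0 without the 2 farthest libraries and 0 to 2 when each library was left out (0 without iFAXLKO 4, 6, 7 or 8 or WT 2, 3, 4 or 5). Relations were not tested within library number ranges, for which only r is given. The lower range without WT 2 was added after seeing the data. Pathway genes at an unadjusted p under 0.05 numbered 2 with the macrophage score and 8 without WT 2, against 4. DESeq2 and voom gave no Tyro3 value, since it lay under the filter. At 10 to 35 counts Tyro3 is limited by depth.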
